A study of Homo sapiens with 2 samples.

Results

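Transcripts of the ATF4 response and of amino acid synthesis were examined in the human hepatocellular carcinoma line Huh-7 after transfection with siRNA against DEPDC1, which encodes a DEP domain protein. The group held 43 genes, listed by symbol. A probe set is the set of array probes that reports on 1 transcript, and 18417 genes had one of their own, 41 of the 43 members among them. Where a gene had several, the one brightest on average over the arrays was taken. There were 2 arrays, of cells given NC, taken here as the reference, and of cells given DEPDC1 siRNA. Both cultures were collected 72 h after transfection. With 1 array per group, the values below carry no replicate spread and no p-value. The siRNA sequence, the number of siRNAs and the nature of NC are not given in the sources used here.

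ATF4 is a basic leucine zipper transcription factor at the centre of the integrated stress response. When the kinases PERK, GCN2, PKR or HRI phosphorylate the translation factor eIF2, most translation falls while the ATF4 mRNA is translated more, so the level of the ATF4 mRNA does not report the level of the protein. ATF4 binds composite C/EBP-ATF sites, with C/EBP proteins and other zipper partners, at genes for amino acid synthesis, amino acid uptake and tRNA charging, and at feedback genes such as TRIB3 and PPP1R15A. In hepatocytes this programme responds to amino acid shortage, endoplasmic reticulum stress and mitochondrial stress.

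The composite site is often written TGATGNAA, where N is any base, or TTNCATCA on the other strand. These letters were looked for on both strands of RefSeq promoter windows (GRCh38.p14, 250 bases before to 50 after each start). Of the 37 members with a window, 12 held a match (32.4%), against 4.46% of all 27305 genes with a window; counted by window, the shares were 24.1% of 58 and 3.62% of 35116. The members are listed largely as known ATF4 targets, so this excess is a property of the list. A match is a description of the letters and not a measured binding site. 6 members whose match lay ahead of their furthest upstream listed start are shown because they span the group's roles, from the regulator ATF3 to enzymes and tRNA synthetases. Each is given 5′ to 3′ on the gene's own strand, with the match in capitals.
ASNS: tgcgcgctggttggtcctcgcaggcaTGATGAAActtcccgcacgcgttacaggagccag
ATF3: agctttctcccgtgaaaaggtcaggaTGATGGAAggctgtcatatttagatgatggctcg
CHAC1: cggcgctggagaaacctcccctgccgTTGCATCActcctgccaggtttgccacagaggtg
GOT1: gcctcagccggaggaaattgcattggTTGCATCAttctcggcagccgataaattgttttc
AARS1: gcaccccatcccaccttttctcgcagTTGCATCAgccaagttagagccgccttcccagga
IARS1: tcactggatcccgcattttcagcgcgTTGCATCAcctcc

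These stretches lie at chr7:97872443-97872502 (ASNS, minus strand), chr1:212565190-212565249 (ATF3, plus strand), chr15:40953236-40953295 (CHAC1, plus strand), chr10:99430789-99430848 (GOT1, minus strand), chr16:70289660-70289719 (AARS1, minus strand) and chr9:92293698-92293736 (IARS1, minus strand). The match began 68 bases before the start of ASNS, 191 before that of ATF3, 209 before that of CHAC1, 198 before that of GOT1, 187 before that of AARS1 and 13 before that of IARS1. The other 6 members with a match were CEBPG, GARS1, JDP2, MARS1, MTHFD1L and NARS1. PCK2, VLDLR and TRIB3 had no match in their windows, which says only that these letters were absent there. Windows for EIF4EBP1, GPT2, NUPR1, PSPH, PYCR1 and SHMT2 were not analysed here.

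The deposited values were log2 expression and are given as such throughout, and a difference is always siRNA minus NC. Genes were taken as detected at 4.66, the pooled median of the probe sets, on at least 1 array, and all 41 measured members passed on both. The targeted transcript DEPDC1 stood at 7.82 with NC and at 5.15 with siRNA, 6.37-fold lower. Of 13 hepatocyte markers, 11 were measured and all of these were detected, ALB, AFP, APOB and TF among them. In the siRNA array 5 of those 11 (45.5%) were at least 2-fold lower by the deposited values, against 0.863% of detected genes. Among the 5, AHSG stood at 4.19 with siRNA, under the threshold, and was at least 1.82-fold lower against the threshold. At least 2-fold higher was 1 (9.09%), TTR, against 1.94%. APOA2 and APOH were also higher, by 0.40 and 0.13. Both samples were labelled as Huh-7 cells alone. In a bulk sample of that line, fewer cells that express a gene and less RNA per cell cannot be told apart.

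Most members had a higher value in the siRNA array, by small amounts. Of the 41, 34 were higher and 7 lower, which is 82.9% higher against 49.9% of the 11352 detected genes. The median difference of the members was 0.34, and that of all detected genes 0.00. At least 2-fold higher were 2 members (4.88%), PCK2 and VLDLR, against 1.94% of detected genes, and none was at least 2-fold lower, against 0.863%. At least 1.5-fold higher were 10 (24.4%), against 6.03%, and none was at least 1.5-fold lower, against 3.74%. ATF3, EIF4EBP1 and PHGDH lay closest to that threshold and passed under it when each array was centred on its detected genes, which left 7. The difference of 27 members lay above the 75th percentile of all detected genes (0.21), and that of 2 members lay below the 25th percentile (-0.18). These counts describe 2 arrays only. The members were chosen with earlier results of these data known, so their excess over all detected genes is not independent evidence.

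As a gauge of measurement noise within the arrays, the differences given by separate probe sets of 1 gene were set side by side. In the 444 genes that had several detected ones, they spanned a median of 0.087 and a 90th percentile of 0.41. 17 of the 41 members differed by more than 0.41, all of them higher, and 24 lay within it. Of all detected genes, 19.5% exceeded it in either direction and 11.7% did so upward. The gauge leaves out the spread between cultures, which was not measured.

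**Figure D1:**
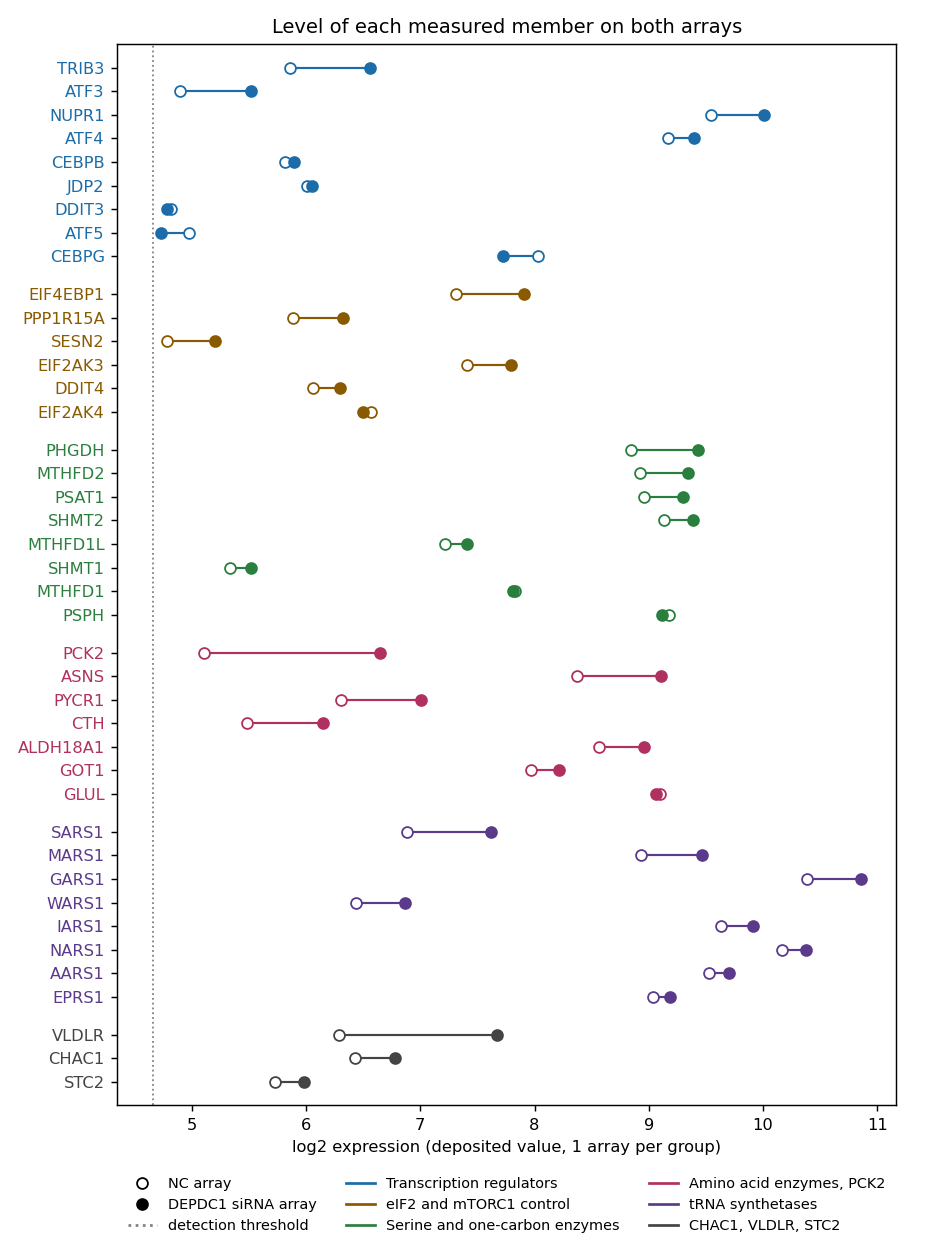
Log2 expression of the 41 measured members on the NC array (open circles) and the DEPDC1 siRNA array (filled circles), 1 array per group, coloured by role and ordered by difference within a role. PCK2 (5.11 and 6.65) and VLDLR (6.28 and 7.67) show the widest gaps, and the filled circle lies to the left for 7 genes.

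Among the transcription factors and their partners, the values were mixed: 6 of 9 were higher (66.7%, against 49.9% of all detected genes) and 3 lower. The median difference was 0.08 (JDP2 turned lower with centring on detected genes). ATF4 itself had 9.17 with NC and 9.40 with siRNA, 1.18-fold higher. Its 2 probe sets gave 0.23 and 0.26. ATF3, a stress-induced zipper factor and ATF4 target, had 4.90 and 5.52, 1.54-fold higher, its NC value being close to the detection threshold. TRIB3, a pseudokinase that feeds back on ATF4 and CHOP, had 5.86 and 6.56, 1.62-fold higher. These were the 2 regulators at least 1.5-fold higher (22.2%, against 6.03% of all detected genes). NUPR1, a small stress-induced chromatin protein, had 9.54 and 10.01, a difference of 0.47.

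The other regulators lay within the noise gauge of 0.41 in both directions. DDIT3, which encodes the pro-apoptotic factor CHOP, had 4.82 and 4.78, a difference of -0.04 near the threshold. CEBPB, a C/EBP factor of the acute-phase response, had 5.81 and 5.90, a difference of 0.08. CEBPG, a C/EBP protein that dimerises with ATF4, had 8.03 and 7.72, a difference of -0.31 and the lowest of all members. ATF5, an ATF4 relative that controls the mitochondrial stress response, had 4.98 and 4.73, a difference of -0.24. JDP2, a zipper repressor, had 6.01 and 6.05. Thus the regulators ran from 1.24-fold lower to 1.62-fold higher.

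Genes that control eIF2, translation and mTORC1 were higher in 5 of 6 cases (83.3%, against 49.9% of all detected genes), with a median difference of 0.40. At least 1.5-fold higher was 1 member (16.7%, against 6.03%). That member was EIF4EBP1, which encodes the translation repressor 4E-BP1 (7.31 and 7.91, 1.51-fold higher). PPP1R15A, the stress-induced GADD34 subunit that directs dephosphorylation of eIF2, had 5.89 and 6.32, a difference of 0.43. SESN2, sestrin 2, a leucine sensor that restrains mTORC1, had 4.78 and 5.20, a difference of 0.42. The kinases of eIF2 in the group differed from each other. EIF2AK3, the endoplasmic reticulum kinase PERK, had 7.41 and 7.79, a difference of 0.39. EIF2AK4, the amino acid sensor GCN2, had 6.57 and 6.50, a difference of -0.07. DDIT4, the mTORC1 inhibitor REDD1, had 6.06 and 6.30, a difference of 0.24.

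**Figure D2:**
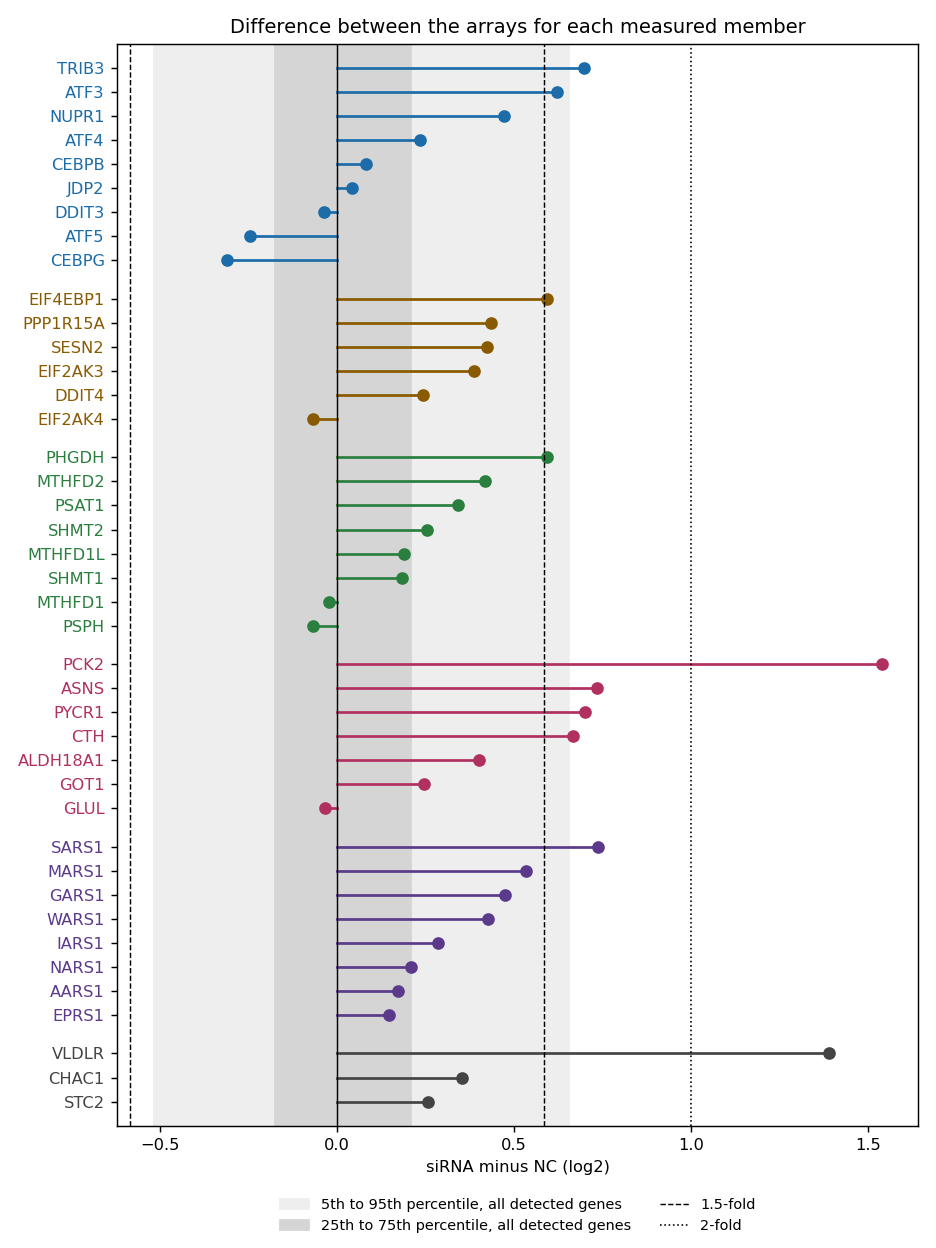
Difference between the arrays (siRNA minus NC, log2) for the 41 measured members, by role. Shading marks the 5th to 95th and 25th to 75th percentiles of all 11352 detected genes, dashed lines mark 1.5-fold and the dotted line 2-fold; 10 members lie at or beyond 1.5-fold, all on the right.

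In the serine and one-carbon pathway, 6 of 8 enzymes were higher (75%, against 49.9% of all detected genes). At least 1.5-fold higher was 1 of them (12.5%, against 6.03%). The median difference was 0.22 (MTHFD1 turned higher, by 0.01, with centring on all probe sets). PHGDH, which starts serine synthesis from a glycolytic intermediate, had 8.84 and 9.43, 1.51-fold higher. PSAT1, the transaminase of the next step, had 8.96 and 9.30, a difference of 0.34. PSPH, the phosphatase of the last step, had 9.18 and 9.11, a difference of -0.07, while its second probe set gave 0.04. Along this short pathway the difference was thus largest at the first enzyme and near 0 at the last.

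The mitochondrial one-carbon enzymes followed. SHMT2, mitochondrial serine hydroxymethyltransferase, had 9.13 and 9.38, a difference of 0.25. MTHFD2, the mitochondrial methylenetetrahydrofolate dehydrogenase, had 8.92 and 9.34, a difference of 0.42, and its second probe set gave 0.40. MTHFD1L, which releases formate in mitochondria, had 7.22 and 7.41, a difference of 0.19. All 3 mitochondrial enzymes were higher, against 49.9% of all detected genes. Of the cytosolic enzymes, SHMT1 had 5.33 and 5.51, a difference of 0.18, and MTHFD1 had 7.83 and 7.81, a difference of -0.02. The difference between the compartments was not tested.

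The other enzymes of amino acid synthesis were grouped with PCK2, which makes no amino acid itself and had the largest difference of all members. Of the 7 measured in this group, PCK2 included, 6 were higher (85.7%, against 49.9% of all detected genes). At least 1.5-fold higher were 4 of them (57.1%, against 6.03%), and the median difference was 0.67. PCK2, mitochondrial phosphoenolpyruvate carboxykinase, had 5.11 with NC and 6.65 with siRNA, 2.90-fold higher. It ranked 70th among the 11352 detected genes by increase. ASNS, asparagine synthetase, had 8.37 and 9.11, 1.66-fold higher. PYCR1, which makes proline in mitochondria, had 6.31 and 7.01, 1.62-fold higher. CTH, which makes cysteine from cystathionine, had 5.48 and 6.15, 1.59-fold higher.

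The remaining members of that group differed less. ALDH18A1, which makes the precursor of proline and ornithine, had 8.56 and 8.96, a difference of 0.40, so both enzymes of proline synthesis in the group were higher. GOT1, cytosolic aspartate aminotransferase, had 7.97 and 8.21, a difference of 0.25. GLUL, glutamine synthetase, had 9.10 and 9.06, a difference of -0.03, and its second probe set gave -0.15. CBS, which makes cystathionine, shared its probe set with the gene entry LOC102724560 and was left out of the counts; that probe set had 7.77 and 8.53, a difference of 0.76. GPT2, mitochondrial alanine aminotransferase, was not analysed here.

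The tRNA synthetases load amino acids onto their tRNAs. All 8 of the group had a higher value in the siRNA array (100%, against 49.9% of all detected genes), with a median difference of 0.36. SARS1, for serine, had 6.88 and 7.62, 1.67-fold higher. It was the 1 synthetase of the group at least 1.5-fold higher (12.5%, against 6.03% of all detected genes). MARS1, for methionine, had 8.93 and 9.46, a difference of 0.53, next below that threshold. GARS1, for glycine, had 10.38 and 10.86, a difference of 0.47. WARS1, for tryptophan, had 6.44 and 6.86, a difference of 0.43. Smaller differences were seen for the other members. IARS1, for isoleucine, had 9.63 and 9.92, NARS1, for asparagine, 10.17 and 10.38, AARS1, for alanine, 9.53 and 9.70, and EPRS1, for glutamate and proline, 9.04 and 9.18. The last 3 differed by 0.15 to 0.21.

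The 3 products outside these pathways were all higher (100%, against 49.9% of all detected genes). VLDLR, the very low density lipoprotein receptor, had 6.28 and 7.67, 2.62-fold higher, and ranked 92nd by increase. CHAC1, which degrades glutathione, had 6.43 and 6.78, a difference of 0.35. STC2, the secreted glycoprotein stanniocalcin 2, had 5.73 and 5.98, a difference of 0.26. CHAC1, like DDIT3 and CEBPB, thus differed by less than the noise gauge of 0.41, while TRIB3, ASNS and PCK2 lay beyond it.

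**Figure D3:**
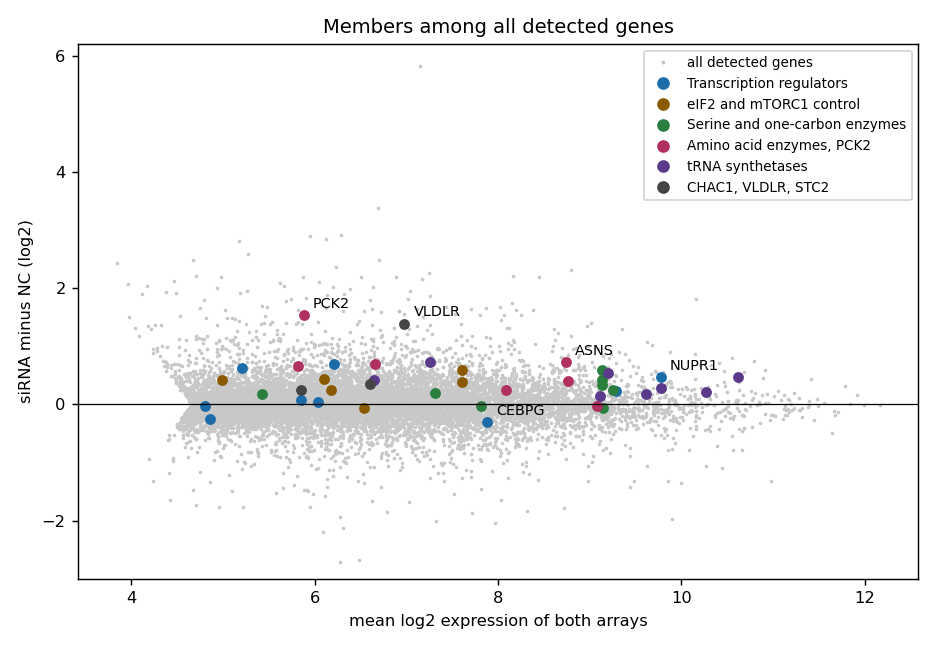
Difference between the arrays (siRNA minus NC, log2) against the mean log2 expression of both arrays. Grey points are all 11352 detected genes and coloured points the 41 measured members by role; most members lie above 0 but inside the grey cloud, with PCK2 (1.54) and VLDLR (1.39) highest and CEBPG (-0.31) lowest.

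Values of members with and without the TGATGNAA letters are set side by side here, without a test. The 12 detected members with a match had a median difference of 0.27, with 11 of 12 higher and 2 at least 1.5-fold higher (ASNS and ATF3). The 24 with a window and no match had a median of 0.36, with 19 higher and 6 at least 1.5-fold higher. For the narrower form TGATGCAA, the 9 members with a match had a median of 0.21 and 0 of them were at least 1.5-fold higher, while the 27 without it had a median of 0.40 and 8 (29.6%) were. Outside the group, 239 detected genes held a TGATGNAA match; 44.4% of them were higher, with a median of -0.04, and 12.1% were at least 1.5-fold higher. Of the 8876 other detected genes without a match, 51.1% were higher, with a median of 0.01, and 5.87% were at least 1.5-fold higher. For TGATGCAA outside the group, 61 detected genes held a match, of which 50.8% were higher and 13.1% at least 1.5-fold higher. Without that match, 51% of 9054 were higher and 5.99% at least 1.5-fold higher.

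Further genes of the pathway were taken from lists of related genes. Of 26 more ATF4 and CHOP targets, 24 were detected. Of these, 17 were higher (70.8%, against 49.9% of all detected genes) and 7 lower, and the median difference was 0.16. At least 1.5-fold higher were 5 (20.8%, against 6.03%), of which 2 passed 2-fold (8.33%, against 1.94%). None was at least 1.5-fold lower, against 3.74%. Amino acid transporters led the list. SLC7A11, the cystine and glutamate exchanger, had 7.11 and 8.21, 2.15-fold higher. SLC1A4, a transporter of alanine, serine and cysteine, had 6.36 and 7.38, 2.03-fold higher. SLC3A2, the heavy chain that partners SLC7A11, had 7.95 and 8.60, 1.57-fold higher, and LONP1, a mitochondrial protease, had 5.78 and 6.64, 1.81-fold higher.

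Of 12 detected further tRNA synthetases and scaffold genes, 9 were higher (75%, against 49.9% of all detected genes) and 3 lower, with a median of 0.12. HARS1, for histidine, was 1.84-fold higher (7.09 and 7.97) and CARS1, for cysteine, 1.66-fold higher (6.69 and 7.41), while KARS1 differed by 0.39 and YARS1 by -0.42. Of the 15 detected mitochondrial synthetases, 4 were higher (26.7%) and 11 lower, with a median of -0.08 and none past 1.5-fold in either direction. TARS2 differed by 0.57, NARS2 by -0.57, FARS2 by 0.48 and WARS2 by -0.28. The 7 detected mitochondrial counterparts of the group's own synthetases (MARS2, WARS2, NARS2, SARS2, EARS2, PARS2 and IARS2), picked out after the values were seen, ran from -0.57 to -0.08 with a median of -0.22. The difference from the group's own synthetases was not tested.

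Of 8 detected further folate and glycine genes, 3 were higher (37.5%, against 49.9% of all detected genes) and 5 lower, with a median of -0.08. ALDH1L2, the mitochondrial formyltetrahydrofolate dehydrogenase, had 4.36, under the threshold, and 5.84, which is at least 2.26-fold higher against the threshold. TYMS, thymidylate synthase, differed by -0.41, SLC25A32, the mitochondrial folate carrier, by -0.41, and GLDC, of the glycine cleavage system, by -0.31. Apart from ALDH1L2, then, no detected gene of that list was 1.5-fold different.

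Of 16 detected further eIF2 genes, 9 were higher (56.2%), 6 lower and 1 (EIF2B4) the same on both arrays, with a median of 0.09. EIF2B2 and EIF2B1, subunits of the eIF2B exchange factor, differed by 0.74 and 0.58, EIF2AK2, the double-stranded RNA kinase PKR, by -0.56 and IMPACT, a GCN2 inhibitor, by 0.36 with its NC value under the threshold. In the IRE1 and ATF6 arms of the unfolded protein response, 15 of 18 genes were higher, with a median of 0.18. That share (83.3%) was close to that of the members (82.9%), against 49.9% of all detected genes. CALR, the chaperone calreticulin, differed by 0.67, CRELD2, a secreted stress protein, by 0.64, HSPA5, the chaperone BiP, by 0.35 and XBP1, the IRE1 target, by 0.27.

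**Figure D4:**
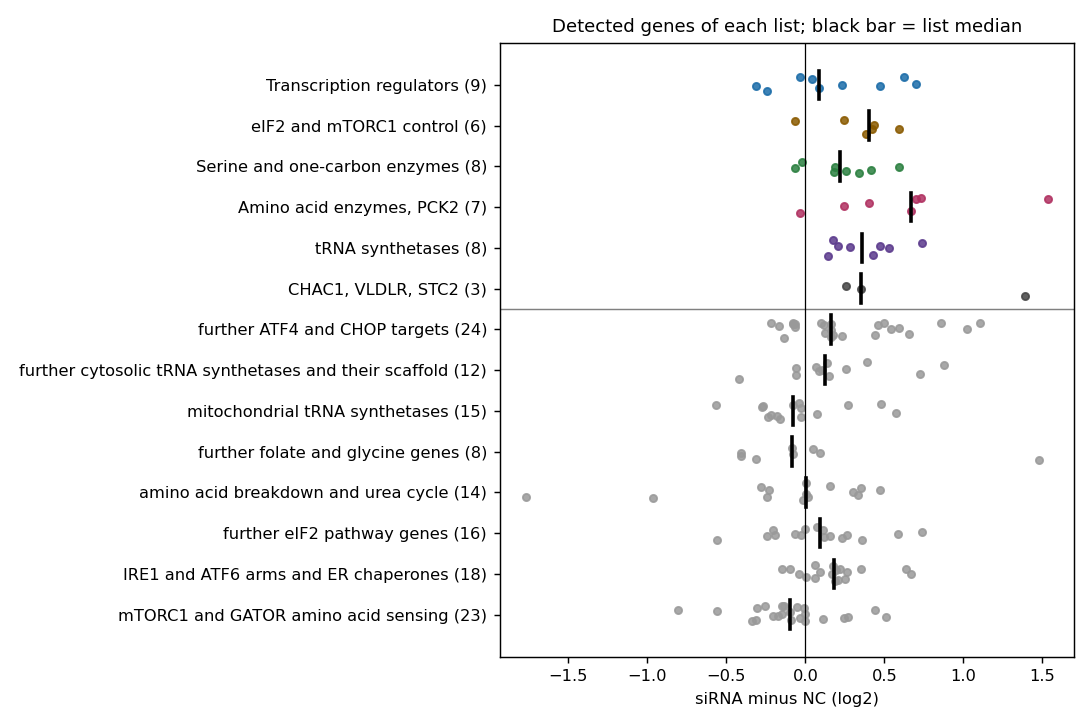
Difference between the arrays (siRNA minus NC, log2) of each detected gene, in the 6 role groups of the members (above the line) and in 8 further lists (below it), with the number of detected genes in brackets. Vertical jitter separates the points and black bars mark list medians. These run from 0.67 for the amino acid enzymes with PCK2 to -0.10 for mTORC1 and GATOR genes.

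Genes often used as markers of other cell types were set beside these values. Of 8 fibroblast and stellate cell markers, 5 were detected. LUM (7.64 and 9.95) and COL1A2 (5.43 and 6.50) were at least 2-fold higher in the siRNA array (40%, against 1.94% of all detected genes). COL1A1, COL3A1 and PDGFRA differed by 0.06, -0.04 and 0.09. PDGFRB, DCN and ACTA2 lay under the threshold on both arrays. The log2 of the summed linear values of all 8 was 8.77 with NC and 10.32 with siRNA, and without LUM 7.89 and 8.16. None of 4 endothelial markers was detected. Of 4 measured leukocyte markers, PTPRC and CD3E were under the threshold. LYZ (4.85 and 6.05, 2.30-fold) and CD14 (6.83 and 7.10) were higher. Of these 2 detected markers, only LYZ passed 2-fold (50%, against 1.94% of all detected genes). Of 4 cholangiocyte markers, 3 were detected, and their differences ran from 0.09 to 0.52. Both samples were labelled as Huh-7 cells alone, so these values are given as levels in that line.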

How the data were processed

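The authors deposited a table of log2 expression for 33297 probe sets on 2 arrays. The log2 unit was inferred from the values (1.39 to 12.7, medians 4.67 and 4.64), since no label states it. The submitters' processing notes list Transcriptome Analysis Console 3.0 beside Affymetrix Expression Console; background correction, normalization and summarization are not given in the sources used here. The sorted columns differed by at most 0.0997, so no further scaling was applied. 225 of the detected genes had the same value on both arrays. Scanner intensities and detection calls were not analysed here, and having 2 arrays limits precision throughout. Background signal can compress the differences of dim genes.

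Genes were named from GEO's platform annotation, with 1 gene for 19460 probe sets, several for 1754 and none listed for 12083, and updated by Entrez identifier against RefSeq (GRCh38.p14), which matched 19429. Pseudogenes named after ASNS, ATF4, GLUL, MTHFD2 and PSAT1 stand in that table, 4 to 7 each, and probe sets of these genes may take signal from them. Every member was named, and up to 4 detected genes with the largest absolute difference per further list; other names were chosen after their values were seen. Members and lists were chosen with earlier results of these data known. A fold against a value under the threshold was taken against the threshold ("at least"), while counts by size used the deposited values. With 1 array per group no test was run. The calling of 2-fold changes and the finding of planted motifs were tested on simulated data. Counts at 1.5-fold, signs, medians and the rate of false motif matches were not tested there. Python 3.11.15, pandas 2.3.3 and numpy 2.4.6 were used.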

Additional observations from a re-analysis of the deposited data

How the results depend on the processing

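The counts and the median of the members were recomputed under 9 alternatives: no detection filter, a threshold at the 75th percentile, values raised to the threshold, centring on all probe sets or on detected genes, a repeated quantile normalization, the mean or the dimmest of a gene's probe sets, and probe sets of several genes. In all 9, 2 members passed 2-fold upward and 0 passed 1.5-fold downward. The count at least 1.5-fold higher ran from 7 (centring on detected genes) to 11 (probe sets of several genes, which added CBS), and the median from 0.28 to 0.37. The higher threshold kept 30 members, 25 of them higher. Signs turned for JDP2 (-0.02, centring on detected genes), MTHFD1 (0.01, centring on all probe sets) and PSPH (0.04, dimmest probe set). No replicate could be left out. No paired analysis was possible because each group had 1 array.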

Other observations

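Genes of mTORC1 and of GATOR amino acid sensing were mostly lower, by small amounts. Of 23 detected, 5 had a higher value in the siRNA array (21.7%, against 49.9% of all detected genes). The other 18 had a lower value, as did 5461 of the 11352 detected genes. The median difference was -0.10, and 22 genes lay within 1.5-fold. SAMTOR, a sensor of S-adenosylmethionine, had 6.34 with NC and 5.54 with siRNA, 1.75-fold lower, the 1 gene of the list past 1.5-fold. SESN1, the sestrin paralog of the member SESN2, had 5.95 and 5.39, a difference of -0.56. SEC13, a GATOR2 subunit, differed by 0.51 and NPRL3, a GATOR1 subunit, by 0.44.

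Genes of amino acid breakdown and the urea cycle held large single decreases around a median of 0.00 over 14 detected genes. HAL, which starts histidine breakdown, had 6.10 with NC and 4.33, below the detection threshold, with siRNA, at least 2.72-fold lower. ARG2, mitochondrial arginase, had 5.39 and 4.42, at least 1.66-fold lower against the threshold. BCKDHA, of branched-chain amino acid breakdown, differed by 0.47 and CDO1, which oxidises cysteine, by 0.35.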
